A study of Mus musculus with 6 samples.

Results

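The 10 genes described here are Spint1, Ambp, Saa3, Adam9, Trpm4, Cyp2s1, Muc1, Fst, Fignl2 and Orm1, out of 38887 gene identifiers counted in bone marrow neutrophils of tumor-bearing mice. Apart from Orm1, which serves as a contrast, these 9 rising genes were chosen by their counts, being almost without reads in naive mice and counted in both libraries of three-week LL2 mice. Ly6G+ cells were taken with magnetic beads from naive mice, from mice 1 week after injection of LL2 cells and from mice 3 weeks after it, with 2 libraries per group and 6 in all. LL2 is a Lewis lung carcinoma line, here carrying luciferase, and the methods describe intravenous injection to seed tumors in the lung. The methods name C57BL/6 mice for the study, whereas the labels of these libraries give no strain, age or sex. Each library is labelled as a numbered replicate mouse, and no source says that cells of several mice were pooled.

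In neutrophils from three-week LL2 mice, the 9 rising genes together had 685 and 566 counts in the 2 libraries, against 14 and 13 in naive mice and 42 and 22 in one-week LL2 mice. Together they made up between 0.00405% and 0.00485% of a library at 3 weeks. Not all of the 10 were near 0 in naive mice, since Fignl2 was above the floor of 3 counts in naive mice, and Orm1 was abundant there and lower at 3 weeks. The other 8 genes were at or under 3 counts in both naive libraries. Since these libraries chose the genes, their counts at 3 weeks are a description and were not tested. In a bulk sample, more cells of a type and more RNA per cell cannot be told apart.

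These genes belong to different families. Spint1 and the bikunin part of Ambp are Kunitz inhibitors, which block serine proteases by lodging a small folded loop in the active site. Adam9 is a membrane metalloprotease that sheds ectodomains, Muc1 a transmembrane mucin and Trpm4 a cation channel opened by intracellular calcium. Saa3 and Orm1 encode acute-phase proteins, which the liver and other tissues make in response to IL-6, IL-1 and glucocorticoids. Cyp2s1 is a cytochrome P450 induced through the aryl hydrocarbon receptor, Fst encodes follistatin, which binds and blocks activin, and Fignl2 belongs to the fidgetin family of microtubule-severing ATPases.

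Promoter windows of 250 bases before the RefSeq transcription start were on hand for 6 of the 10 genes. The windows of Spint1 and Saa3, the genes with no read in naive mice, and of Muc1, which held no motif searched, are printed 5′ to 3′ from GRCm38.p6 with motif matches in capitals. Spint1 is from chr2:119237110-119237359 on the plus strand, Saa3 from chr7:46715677-46715926 on the minus strand and Muc1 from chr3:89228806-89229055 on the plus strand.
Spint1: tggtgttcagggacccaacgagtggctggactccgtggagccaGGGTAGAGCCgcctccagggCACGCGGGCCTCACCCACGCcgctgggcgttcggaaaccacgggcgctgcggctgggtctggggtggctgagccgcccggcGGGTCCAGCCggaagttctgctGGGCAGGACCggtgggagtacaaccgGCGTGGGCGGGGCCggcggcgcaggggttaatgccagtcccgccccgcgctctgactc
Saa3: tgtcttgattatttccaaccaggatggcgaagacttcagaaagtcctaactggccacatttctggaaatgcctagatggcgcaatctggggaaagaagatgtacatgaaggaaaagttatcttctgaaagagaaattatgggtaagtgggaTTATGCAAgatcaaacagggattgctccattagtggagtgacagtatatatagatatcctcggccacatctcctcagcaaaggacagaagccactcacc
Muc1: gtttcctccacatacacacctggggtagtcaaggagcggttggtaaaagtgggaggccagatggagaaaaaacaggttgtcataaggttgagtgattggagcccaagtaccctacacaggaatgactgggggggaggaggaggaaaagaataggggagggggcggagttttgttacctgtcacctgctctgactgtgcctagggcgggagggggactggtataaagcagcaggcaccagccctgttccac

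The window of Saa3 held the letters of a C/EBP motif (TTGCNNAA on either strand) from 99 to 92 bases before the start, which 9.564% of all 32851 windows of this length also hold. Letters of an NF-kappaB motif (3 G, any 5 bases and 2 C, on either strand) stood at 6 places in Spint1, some of them overlapping, and also in Ambp, Cyp2s1 and Fignl2, a count of 4 of 6 windows beside 45.801% of all windows. The windows of Ambp, Cyp2s1 and Fignl2 lie wholly within the GENCODE gene models, which begin farther upstream than the RefSeq start used. The xenobiotic response core GCGTG stood in Spint1 alone of the 6, in 3 places, some sharing a base with NF-kappaB letters, and in 28.157% of all windows. None of the 6 held the STAT letters TTCNNNGAA (7.02% of all windows), the AP-1 letters TGANTCA (6.749%) or the hypoxia core ACGTG (16.572%). Base composition ran from 43.2% G and C in Saa3 to 72.8% with 26 CpG in Spint1, beside a median of 52.4% and 6 CpG over all windows. The windows therefore share no searched motif among all 6, and a match of letters is not evidence of binding.

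The libraries held between 11994158 and 14127919 expected counts, and 3 counts corresponded to between 0.2 and 0.245 CPM, the count scaled to a common library size with TMM factors. Neutrophil markers summed to between 277000 and 338000 CPM, although Ly6g itself, the antigen used for selection, had only 6 to 32 counts, and 3 of the 12 markers were called higher and 3 lower at 3 weeks than in naive mice. Hepatocyte markers were at or under 3 counts in every library for all 12 genes listed, Alb included. Of 11 epithelial and lung carcinoma markers, Krt19, Cldn3, Cldn4 and Esrp1 were at 0 in all libraries and Epcam had 0 and 1 count at 3 weeks. The summed level of these 11 was 4.98 to 7.67 CPM in naive and one-week mice. At 3 weeks it was 18.0 and 6.84 CPM, most of it from Cdh1. Of the 2 that were tested, Cdh1 was higher at 3 weeks (219 and 76 counts against 43 in each naive library, adjusted p = 0.0155 in edgeR's quasi-likelihood test) and Krt7 was lower (adjusted p = 0.0177). Neutrophil precursor markers stood higher, at 292 and 392 CPM against 94.7 to 146 CPM in the other 4 libraries, with 5 of 8 called higher and Mki67 lower. Lymphocyte markers stood lower, at 18.4 and 10.1 CPM against 41.7 to 69.8 CPM, with 6 of 7 tested called lower. No monocyte and macrophage marker of 14 was called higher and Cx3cr1 was lower. None of 7 eosinophil, basophil and mast cell markers and none of 8 erythroid and platelet markers was higher either, with 2 and 3 of them lower. Of 8 tested stromal and endothelial markers 1 was higher and 3 lower. The part of these cells and stages in the levels below was not tested.

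**Figure D1:**
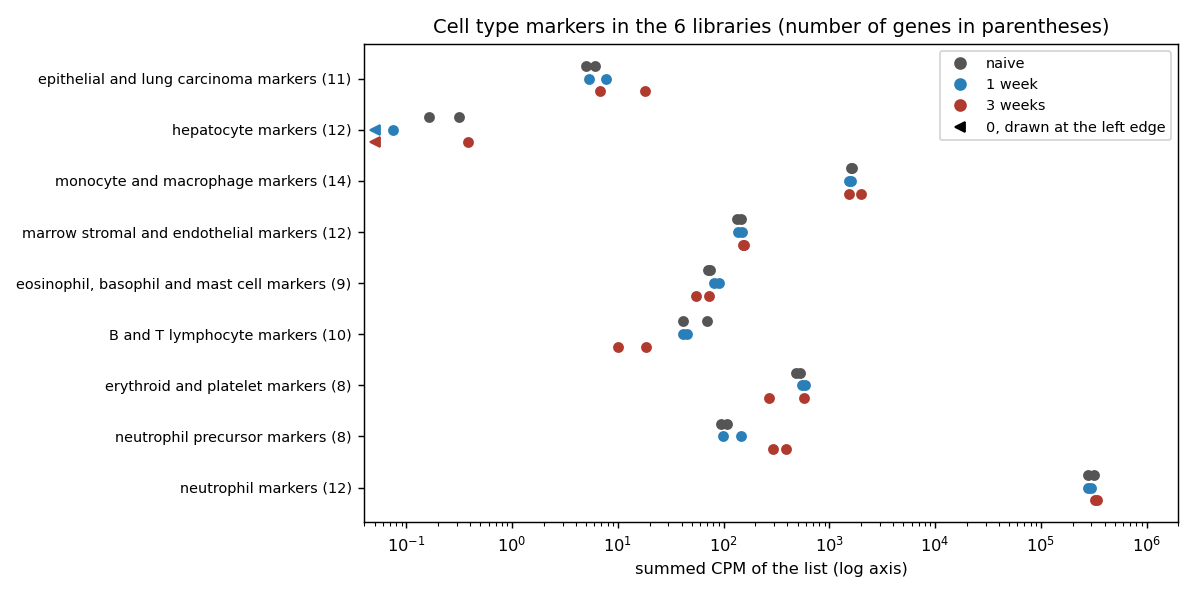
Summed CPM (log axis) of 9 lists of cell type markers in each of the 6 libraries, with naive in grey, 1 week in blue and 3 weeks in red. At 3 weeks precursor markers lie to the right in both libraries and lymphocyte markers to the left. The epithelial sum, mostly Cdh1 at 3 weeks, lies clearly to the right in 1 library only. Hepatocyte markers stay under 1 CPM throughout.

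Among the protease inhibitors, Spint1 (ENSMUSG00000027315, chr2:119237362-119249527) had 0 counts in each naive and each one-week library and 147 and 100 counts in the three-week libraries. Only the three-week libraries stood apart, with a mean of 9.54 ± 2.62 CPM (SD, n = 2). Against the 3 counts per library that 0 allows, this is at least 38.9-fold higher than in naive mice and at least 42.7-fold higher than in one-week LL2 mice. Spint1 restrains matriptase and the activator of hepatocyte growth factor and is best known from epithelia. The epithelial list above held both a higher and a lower gene. Its sum was raised in 1 of the 2 three-week libraries, where Cdh1 had 219 counts and each other marker at most 4.

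Ambp (ENSMUSG00000028356, chr4:63143275-63154799), the precursor that is cleaved into alpha-1-microglobulin and bikunin, had 0 and 1 counts in naive mice, 2 and 1 in one-week LL2 mice and 82 and 76 in three-week LL2 mice. Both three-week libraries were far above the other 4, at 6.10 ± 0.365 CPM (SD, n = 2). The ratio of summed counts, scaled for library size, was 152 against naive mice with a 95% counting interval from 26.8 to 6030, and 57.7 (19.4 to 283) against one-week mice. The ratio to naive rests on a single read, and the fitted log2 fold change was 6.04 without naive replicate 1 and 9.36 without naive replicate 2. Such intervals, here and below, cover counting error only and not the spread between mice. Ambp is made mainly by hepatocytes, and the hepatocyte markers Apoa1, Alb and Ttr were at 0 in every library. The whole hepatocyte list summed to 0.316 and 0.164 CPM in naive mice and to 0 and 0.384 CPM at 3 weeks. Which cells the Ambp reads came from was not tested.

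Adam9 (ENSMUSG00000031555, chr8:24949611-25016927) had 2 and 1 counts in naive mice, 22 and 3 in one-week LL2 mice and 39 and 25 in three-week LL2 mice. The 2 one-week libraries disagreed, 1 being close to the three-week level and the other at the floor. At 3 weeks the level was 2.47 ± 0.779 CPM (SD, n = 2), a ratio of 20.5 (6.7 to 102) against naive and of 2.81 (1.74 to 4.65) against one-week mice. Its neighbour Tm2d2 starts 0.28 kb away on the opposite strand and went from 160 and 145 counts to 299 and 315 (log2 fold change 0.95 ± 0.169 SE, adjusted p = 0.00143 by edgeR). Whether the counting used strand is not given in the sources used here.

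Of the acute-phase genes, Saa3 (ENSMUSG00000040026, chr7:46711998-46715700), the serum amyloid A made outside the liver by macrophages and other cells, had 0 counts in both naive libraries, 1 and 0 at 1 week and 52 and 57 at 3 weeks. The level at 3 weeks was 4.20 ± 0.247 CPM (SD, n = 2), at least 17.1-fold higher than in naive mice, and 120 times the one-week level with an interval from 21.0 to 4760. The first is a lower bound and the second a ratio that rests on 1 read, so their sizes cannot be compared. The other serum amyloid genes of the cluster were not counted with it: Saa1, which lies 24.8 kb away, and Saa2 and Saa4 were at 0 in all 6 libraries. On the other side, Saal1 lies 1.32 kb away and had a log2 fold change of 0.27 at 3 weeks (adjusted p = 0.57 by edgeR).

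Orm1 (ENSMUSG00000039196, chr4:63344560-63348163), which encodes orosomucoid, a lipocalin that the liver secretes and that neutrophil granules also store, went the other way. It had 441 and 549 counts in naive mice, 941 and 866 in one-week LL2 mice and 144 and 211 in three-week LL2 mice, so that the 3 groups did not overlap in any pair. The levels were 39.9 ± 7.10, 63.6 ± 1.26 and 13.7 ± 3.57 CPM (SD, n = 2 each). The naive level was 2.91 times that at 3 weeks (2.57 to 3.29), and the one-week level 4.64 times (4.14 to 5.22). Orm3 was at 0 in every library and Orm2, 14.3 kb from Orm1, was likewise at 0. Orm1 and Ambp lie 189.8 kb apart on chromosome 4 and had opposite directions.

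**Figure D2:**
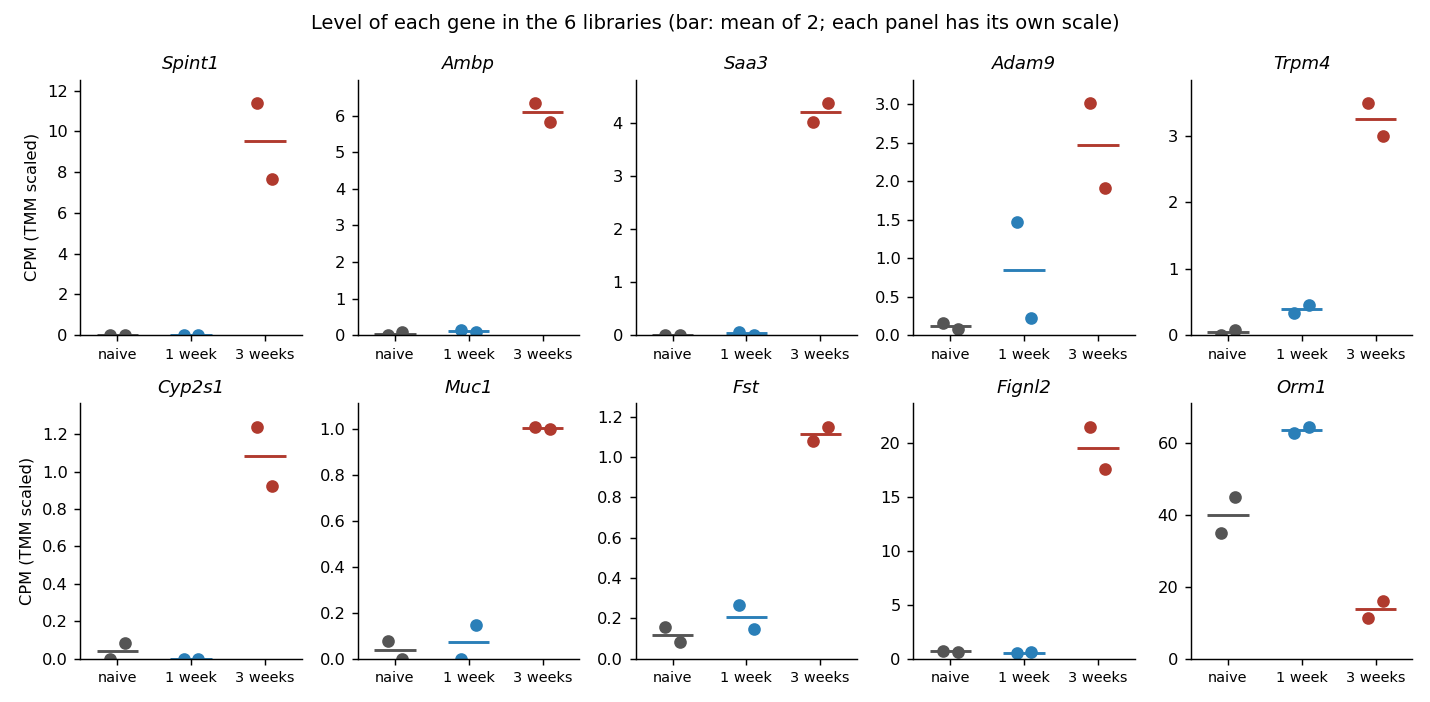
Level in CPM (linear axis from 0, one scale per panel) of each of the 10 genes in naive, one-week and three-week libraries, where points are libraries and bars the means of 2. In 9 panels both three-week points are above all others, Adam9 has 1 one-week point at 1.47 CPM, and in Orm1 the three-week points are lowest.

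For the membrane proteins, Trpm4 (ENSMUSG00000038260, chr7:45302632-45333780) had 0 and 1 counts in naive mice, 5 and 6 in one-week LL2 mice and 45 and 39 in three-week LL2 mice. The 3 groups were stepped without overlap. The level at 3 weeks was 3.24 ± 0.347 CPM (SD, n = 2), with a ratio of 80.6 (14.1 to 3220) against naive and 8.37 (4.45 to 17.4) against one-week mice. The first rests on 1 naive read, and the fitted log2 fold change was 5.13 without naive replicate 1 and 8.45 without naive replicate 2. The pseudogene Rpl14-ps1 lies within Trpm4 on the opposite strand.

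Muc1 (ENSMUSG00000042784, chr3:89229057-89233381), a heavily glycosylated protein of epithelial surfaces, had 1 and 0 counts in naive mice, 0 and 2 at 1 week and 13 in each three-week library. These were the lowest counts at 3 weeks beside those of Cyp2s1 and Fst, with 1.00 ± 0.0062 CPM (SD, n = 2) and ratios of 25.0 (4.1 to 1020) and 14.3 (3.57 to 124) against naive and one-week mice. The intervals are wide because the ratio to naive rests on a single naive read and that to one-week mice on 2 reads. The fitted log2 fold change against naive mice was 6.74 without naive replicate 1 and 3.53 without naive replicate 2.

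Cyp2s1 (ENSMUSG00000040703, chr7:25802475-25816913) had 0 and 1 counts in naive mice, 0 in both one-week libraries and 16 and 12 in the three-week libraries, or 1.08 ± 0.225 CPM (SD, n = 2). The ratio to naive was 26.9 (4.44 to 1100), and against one-week mice it was at least 4.84-fold higher. Here too 1 naive read sets the ratio, and leaving out naive replicate 1 or 2 gave fitted log2 fold changes of 3.55 and 6.87. The lincRNA Gm26707 overlaps it on the opposite strand, with 4 to 13 counts in the 6 libraries and 11 and 5 at 3 weeks (fitted log2 change of -0.06 by edgeR, adjusted p = 0.966).

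Fst (ENSMUSG00000021765, chr13:114452290-114458951) had 2 and 1 counts in naive mice, 4 and 2 in one-week LL2 mice and 14 and 15 in three-week LL2 mice. The level at 3 weeks was 1.12 ± 0.0477 CPM (SD, n = 2), with the smallest ratio to naive among the 9, 9.28 (2.88 to 47.6), and one of 5.3 (2.16 to 15.6) to one-week mice. With Adam9, it is just inside the floor, and without naive replicate 1 its fitted log2 fold change went from 3.12 to 3.60.

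Fignl2 (ENSMUSG00000095440, chr15:101050194-101078567) had 9 and 8 counts in naive mice, 8 in each one-week library and 277 and 229 in three-week LL2 mice. It is just outside the floor, and it had the most counts of the 9 at 3 weeks, 19.5 ± 2.74 CPM (SD, n = 2). The ratios were 28.6 (17.7 to 49.4) and 34.7 (21.1 to 61.1) against naive and one-week mice. Without Fignl2, the other 8 rising genes summed to 5 counts in each naive library and to 408 and 337 at 3 weeks.

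Per kilobase of annotated exon, the level of Orm1 at 3 weeks was still the highest of the 10, at 17.7 ± 4.61 CPM per kb (SD, n = 2), above 84.1% of the tested genes. Fignl2 (4.38 ± 0.614), Ambp (4.33 ± 0.259) and Spint1 (3.45 ± 0.948 CPM per kb) followed, above 61.8%, 61.6% and 57.1% of the tested genes, and did not differ from each other beyond their spread. Saa3 stood next with 1.61 ± 0.0947 CPM per kb, above 41.8%. Adam9 (0.601 ± 0.189), Muc1 (0.428 ± 0.00264), Trpm4 (0.299 ± 0.0321), Fst (0.244 ± 0.0104) and Cyp2s1 (0.219 ± 0.0455 CPM per kb) were lowest, with Adam9, Muc1, Trpm4 and Fst above 24.0%, 18.6%, 13.6% and 11.2% of the tested genes and Cyp2s1 under all of these, and Adam9 and Muc1 were within their spread, as were Fst and Cyp2s1. The lengths are unions of all annotated exons, so a gene whose cells use a short isoform is set too low.

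**Figure D3:**
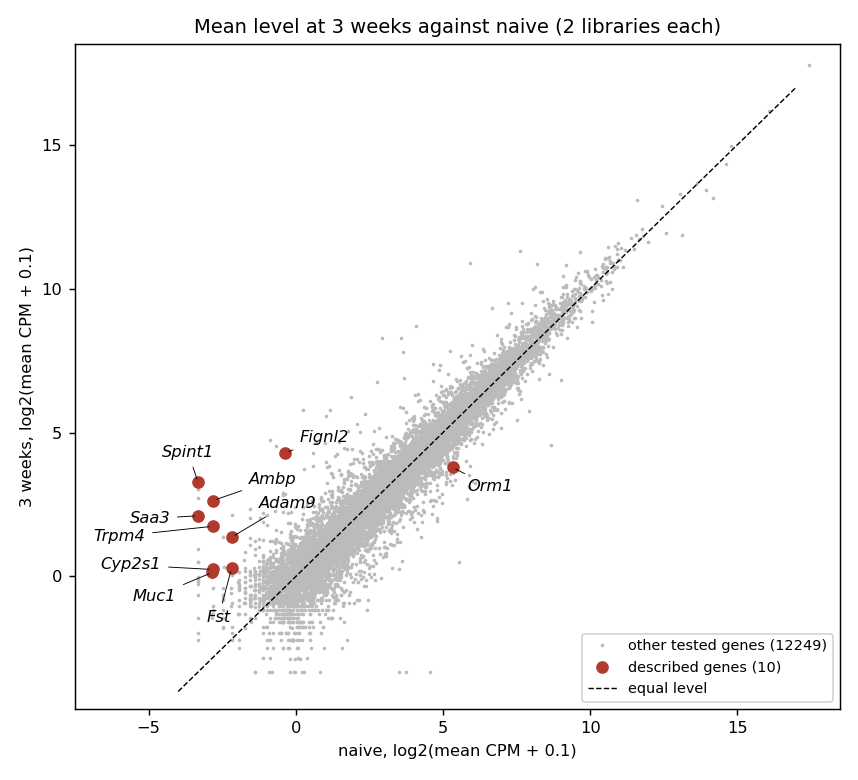
Mean level at 3 weeks against the mean in naive mice for every tested gene, both as log2(mean CPM + 0.1) with 2 libraries per group. The 9 rising genes lie above the line of equal level at its low end, and Orm1 lies under it.

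At 1 week, an arm that had no part in choosing the genes, although the naive arm had, Orm1 was the 1 of the 10 genes that edgeR called against naive mice. Of all tested genes 7.99% were called in that comparison. The rising genes were chosen for few naive reads, and some were at the floor at 1 week too. So 1 of 10 cannot be weighed against this share, and only Orm1 was chosen without that condition. Orm1 was still picked as a contrast with earlier results of these data known, which its p does not allow for. Its log2 fold change was 0.67 ± 0.165 SE (adjusted p = 0.0257), with both one-week libraries above both naive ones, and the call was lost without naive replicate 1 (adjusted p = 0.228), one-week replicate 1 (0.114) or one-week replicate 2 (0.125). For the rising genes the naive arm was part of the choice, so their one-week changes are given as a description with no p. The fitted log2 fold changes at 1 week were 2.75 ± 0.99 SE for Adam9 and 3.00 ± 1.07 SE for Trpm4. Both one-week libraries were above both naive ones in each, although Adam9 had only 3 counts in the second. Without one-week replicate 1 the value of Adam9 was 0.84. With all libraries, the one-week changes of Fst (0.76 ± 1.03 SE) and Fignl2 (-0.27 ± 0.436 SE) were smaller than their errors. Spint1, Ambp, Saa3, Cyp2s1 and Muc1 were at or under 3 counts in every naive and one-week library, so that no fold can be given and a difference was not detectable at this depth.

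Of all 38887 identifiers, 24824 were at or under 3 counts in both naive libraries, and 28 of these (0.113%) were above 10 counts in both three-week libraries. The rising genes make up 8 of the 28. With the same limits, 22 identifiers were counted in naive mice and at the floor at 3 weeks, and 38 were at the floor in naive mice and counted at 1 week. Among the 28, 15 are protein-coding, and 6 are snoRNA genes or pseudogenes whose counts are identical to those of another gene, so that their reads cannot be assigned. Only 9 of the 28 were also at or under 3 counts in both one-week libraries, and 5 of these are Spint1, Ambp, Saa3, Muc1 and Cyp2s1.

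The other 4 genes with that pattern were Nos2, Sult6b2, Dmkn and Gm16014. Nos2, the inducible nitric oxide synthase, was at 0 in all naive and one-week libraries and had 98 and 69 counts at 3 weeks, at least 26.3-fold higher than naive. Sult6b2, named for the sulfotransferase family, had 2 and 1 counts in naive mice, 0 and 1 at 1 week and 83 and 28 at 3 weeks, a ratio of 35.5 to naive (11.8 to 175), and its 2 three-week libraries differed by more than those of the rising genes. Dmkn, an epidermal secreted protein, had 0 and 3, then 0 and 2, then 25 and 41 counts, a ratio of 21.1 (6.92 to 105). Gm16014, an intronic transcript, had 16 and 13 counts at 3 weeks. Gchfr, which encodes the feedback regulator of GTP cyclohydrolase, has the looser pattern with 1 and 1, 5 and 0, and 39 and 25 counts, and it lies 65.0 kb from Spint1 (singled out after its values were seen).

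Each gene has an annotated protein-coding neighbour on either side, 20 in all, of which 8 had enough counts to be tested and 8 were at or under 3 counts in all 6 libraries. At 3 weeks, 2 of the 8 tested neighbours were higher than in naive mice and 0 were lower by edgeR's test at an adjusted p under 0.05, beside 12.0% and 9.42% of all tested genes. These were Tm2d2 beside Adam9 and Rhov, which lies 19.67 kb from Spint1. Rhov had 83 and 120 counts in naive mice, 88 and 94 at 1 week and 376 and 370 at 3 weeks (log2 fold change 1.81 ± 0.196 SE, adjusted p = 3.69e-05). Ppp1r14d, on the other side of Spint1, was at 0 in all 6 libraries. Axl next to Cyp2s1 (-0.09, adjusted p = 0.763) and Ndufs4 next to Fst (0.00) had values close to the median of all genes, 0.035.

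Genes of the same families and pathways were then counted from 9 lists, with the 10 genes left out. Of 128 distinct genes tested, 38 (29.7%) were higher and 18 (14.1%) lower at 3 weeks than in naive mice, beside 12.0% and 9.42% of all tested genes and 21.4% in either direction. At 1 week 4 were higher (3.12%) and 14 lower (10.9%), beside 4.23% and 3.76%. Between the weeks 45 were higher at 3 weeks (35.2%) and 17 lower (13.3%), beside 13.0% and 9.56% of all tested genes and 22.5% in either direction. These comparisons share libraries. The median log2 fold change of the related genes was 0.19 at 3 weeks and -0.07 at 1 week, beside 0.035 and 0.009 over all genes. Without naive replicate 1, 24 were higher at 3 weeks, and without three-week replicate 2, 11 were lower. The lists were chosen with results of these libraries known, so the counts are a description.

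**Figure D4:**
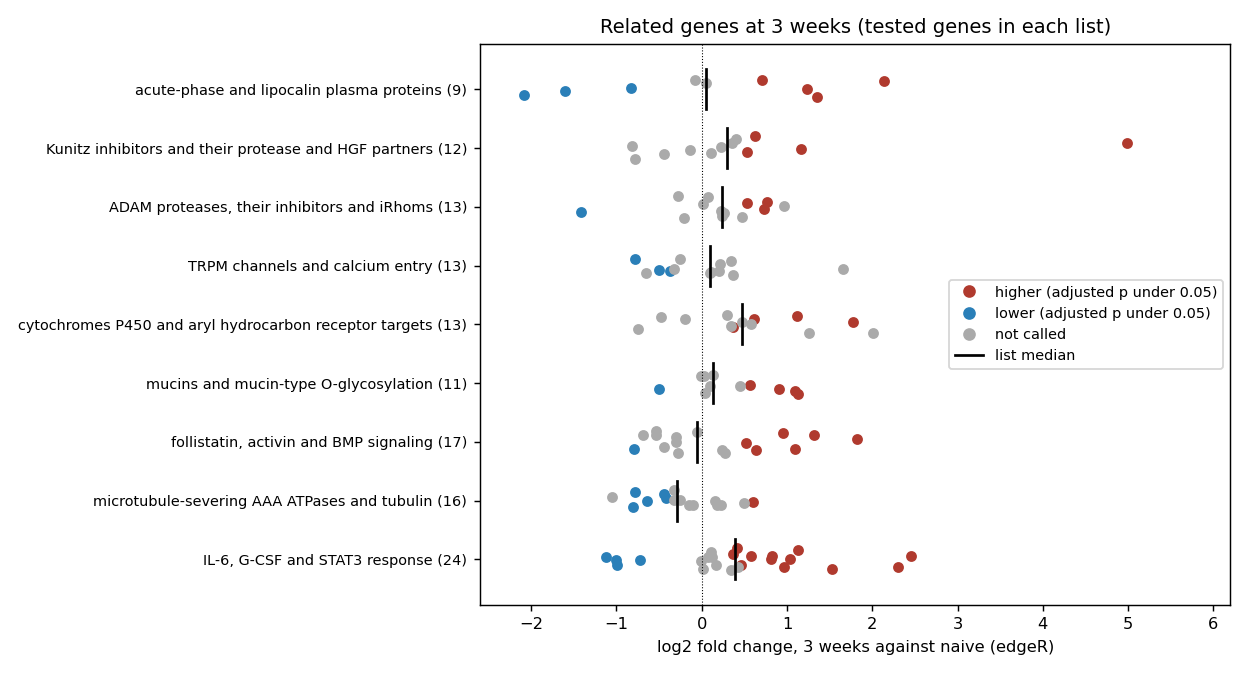
Log2 fold change at 3 weeks against naive mice (edgeR) for each tested gene of the 9 lists, coloured by call, with the list median as a black line and the number of tested genes in parentheses. Wfdc17 stands farthest to the right, and microtubule genes lie mostly to the left.

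In the acute-phase list, 9 of 26 genes were tested, 4 rose and 3 fell, with a median of 0.05. In all 6 libraries 15 of the 26 were at or under 3 counts, among them the fibrinogen genes Fga, Fgb and Fgg. Lrg1, a leucine-rich glycoprotein of neutrophil granules, rose (1.36, adjusted p = 9.66e-04), as did the endotoxin co-receptor Cd14 (2.14, adjusted p = 1.25e-06). The complement gene C3 fell (-0.84, adjusted p = 4.67e-04), and so did Il1rn, the interleukin-1 receptor antagonist (-2.09, adjusted p = 2.75e-07). The list thus split in both directions, as Saa3 and Orm1 did.

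Among Kunitz and other inhibitors and their partners, 12 of 22 were tested, 4 rose and 0 fell, with a median of 0.29. Wfdc17, a whey acidic protein family inhibitor, went from 60.1 ± 36.5 CPM to 1900 ± 222 CPM (SD, n = 2; log2 fold change 4.99, adjusted p = 1.4e-06). App, whose longer isoforms carry a Kunitz domain, rose by 1.16 (adjusted p = 3.74e-05), Wfdc21 by 0.62 (adjusted p = 0.00467) and the elastase inhibitor Serpinb1a by 0.53 (adjusted p = 0.00578). Spint2, the closest relative of Spint1, had 2.66 ± 0.177 CPM in naive mice and 3.51 ± 0.578 CPM at 3 weeks (adjusted p = 0.376), and it was higher at 1 week with 7.28 CPM (log2 fold change 1.45, adjusted p = 0.00824).

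Of the ADAM list, 13 of 18 were tested, 3 rose and 1 fell, with a median of 0.23. The risers were Adam19 (0.73, adjusted p = 0.00155), Adam10 (0.77, adjusted p = 0.0108) and Adam15 (0.53, adjusted p = 0.0246), and Timp3, an inhibitor of ADAM proteases, fell (-1.42, adjusted p = 0.0291). Adam8 had 682 ± 22.7 CPM in naive mice and 589 ± 32.4 CPM at 3 weeks (adjusted p = 0.193), and Adam17 had 0.23 (adjusted p = 0.217). In the TRPM and calcium entry list, 13 of 17 were tested, 0 rose and 3 fell, with a median of 0.10. The channel Trpm2 fell from 303 ± 13.9 to 177 ± 22.0 CPM (-0.78, adjusted p = 0.00101), and Stim2 (-0.51, adjusted p = 0.0175) and Orai1 (-0.37, adjusted p = 0.0335), a calcium sensor and a calcium channel pore, fell as well. Trpm7 had 0.34 (adjusted p = 0.193).

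Cytochromes P450 and aryl hydrocarbon receptor targets had 13 of 17 tested, 4 higher and 0 lower, with a median of 0.47. The quinone reductase gene Nqo1 rose from 2.98 ± 0.0713 to 10.2 ± 0.428 CPM (1.78, adjusted p = 2.36e-04), the sterol demethylase Cyp51 by 1.12 (adjusted p = 3.48e-04) and the receptor's partner Arnt by 0.61 (adjusted p = 0.0225). Aldh3b1 was higher by 0.37 (adjusted p = 0.0382). Cyp1b1 was at 0 in all libraries. Of mucins and O-glycosylation genes, 11 of 18 in the table were tested, 4 rose and 1 fell, with a median of 0.13. Gcnt1 (1.09, adjusted p = 2.89e-05) and Galnt2 (1.13, adjusted p = 0.00169), which build O-linked glycans, rose, and so did Selplg (0.90, adjusted p = 0.00122), which carries them as the ligand of P-selectin, and Emb (0.57, adjusted p = 0.00341).

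In the follistatin, activin and BMP list, 17 of 23 were tested, 6 rose and 1 fell, with a median of -0.06. The activin receptor gene Acvr1b rose from 5.82 ± 0.827 to 20.6 ± 0.236 CPM (1.82, adjusted p = 2.49e-05), Id1, a target of BMP signals, by 1.32 (adjusted p = 4.62e-05) and Tgfbr2 by 0.95 (adjusted p = 0.00249). Fstl3, a relative of follistatin, rose by 1.09 (adjusted p = 0.00125), whereas Inhba, the activin A subunit, fell from 36.5 ± 9.13 to 21.1 ± 0.142 CPM (-0.79, adjusted p = 0.0054). Fstl1 had -0.28 (adjusted p = 0.766). Among microtubule genes, 16 of 17 were tested, 1 rose and 5 fell, with a median of -0.29. Stmn1 (-0.81, adjusted p = 4.77e-04), Tubb5 (-0.64, adjusted p = 0.00579) and Tuba1b (-0.45, adjusted p = 0.0134) were lower and Tuba1a was higher (0.60, adjusted p = 0.00741). The relatives of Fignl2, Fignl1 (-0.33, adjusted p = 0.461) and Fign (0.23, adjusted p = 0.826), were not called.

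Of the IL-6, G-CSF and STAT3 list, 24 of 25 were tested, 12 rose and 4 fell, with a median of 0.39. Socs3 (2.46, adjusted p = 1.13e-06), the receptor gene Il4ra (2.30, adjusted p = 1.92e-06) and Cebpb (1.53, adjusted p = 3.57e-05) rose, and Cebpe, a factor of granule formation in maturing neutrophils, fell (-0.99, adjusted p = 8.52e-05). The direction of every called gene in the 9 lists was the same under RLE size factors, library size alone and DESeq2. With library size alone the median of all genes moved from 0.035 to -0.112, and the medians of the acute-phase, TRPM and mucin lists turned to -0.093, -0.04 and -0.02. Then 7 rather than 12 genes of the IL-6 list rose. The ADAM list had 2 higher and 3 lower, the cytochrome list 2 and 0, the follistatin list 6 and 3, and the microtubule list 1 and 8. The acute-phase, Kunitz, TRPM and mucin lists kept their counts. Of the distinct related genes, 30 rather than 38 were higher and 25 rather than 18 lower. In the same setting 34.7% rather than 56.0% of all genes called at 3 weeks were higher.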

How the data were processed

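RNA of Ly6G+ bone marrow cells was sequenced as total RNA libraries, 2 per group. Per the labels and the submitters' processing notes, the authors aligned reads with Bowtie2 and RSEM 1.2.31 to mm10 and deposited expected counts per Ensembl gene, whole numbers without scaling between libraries. These counts were used as they stand. The paper's figure legend names more samples per group than the labels do, and its methods name an earlier RSEM version. Symbols, positions and exon lengths came from GENCODE vM21 (GRCm38, the build called mm10), which matched 37570 of 38887 identifiers.

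Genes passing filterByExpr (12259) were compared with the quasi-likelihood test of edgeR 4.0.16 in R 4.3.3, with TMM scaling (factors 0.9133 to 1.0718), all 6 libraries and group as the only factor, and were called at a Benjamini-Hochberg adjusted p under 0.05. All 10 genes passed the filter, 9 of them through their three-week level, so that passing says nothing about them. The script was tested on simulated data. The genes and lists were chosen with earlier results of these data known. Named genes were the 10 genes, up to 10 other genes at or under 3 counts in naive and one-week libraries and above 10 at 3 weeks, up to 4 called genes per list with the smallest adjusted p, relatives of the 10 genes, their neighbours and marker genes. Folds against libraries at 0 use a floor of 3 counts per library, and those against 1 or more counts are ratios with exact 95% intervals. A lower bound and a ratio are unlike measures, so their sizes do not rank genes or groups. Alternatives were DESeq2 1.42.0, RLE factors, library size, no filter, fits of 2 groups, a replicate block and leaving out each library. Promoter windows came from RefSeq (GRCm38.p6). The last 24 bases of the Saa3 window and the whole windows of Ambp, Cyp2s1 and Fignl2 lie within the GENCODE gene models. A further epithelial marker is not reported here.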

Additional observations from a re-analysis of the deposited data

Results flagged for a closer look

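Some genes had log2 fold changes of opposite sign at 1 and 3 weeks against the same naive libraries, with both libraries of each time point above or below both naive ones. Of the genes below that the earlier sections also name, only Orm1 and Adam19 were called at 1 week. The other one-week values of these genes did not pass the test. Orm1 had 0.674 at 1 week and -1.542 at 3 weeks, and Fignl2 had -0.274 and 4.818, where the first is that from 9 and 8 counts to 8 in each library. The difference between the time points was not tested for these 2, which were chosen by their three-week values. For the related genes edgeR's adjusted p between three-week and one-week mice is printed. They were picked for opposite sides of naive in these same libraries, which favours a small p, so these values are a description. Adam15 had -0.379 and 0.532 (adjusted p of the difference 9.28e-04), Adam19 had -0.596 and 0.732 (1.93e-05), and Gcnt1 had -0.369 and 1.093 (2.65e-06). Socs3 had -0.381 and 2.458 (3.38e-07). The reverse order was seen for Tuba1b with 0.242 and -0.445 (7.76e-04), Stmn1 with 0.317 and -0.805 (3.73e-05), and Cebpe with 0.242 and -0.99 (1.38e-05). Among list genes that the earlier sections do not name, C4b had -1.147 and 1.24 (5.79e-05). Stat3 had -0.478 and 0.413 (8.07e-05), and Junb had -0.405 and 0.363 (3.53e-04). Each of C4b, Stat3 and Junb was called against naive mice at both weeks.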

How the results depend on the processing

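No fold change of the 10 genes changed sign under the alternatives run, whereas 3 list medians did with library size alone. Cyp2s1 has no value without three-week replicate 1, where it did not pass the filter. For the log2 fold changes of the 10 genes, 107 values at 3 weeks stayed within the spread between libraries and 12 moved. Of these, 9 moved without a naive library (Ambp, Trpm4, Cyp2s1, Muc1 and Fst) and 3 for Spint1 and Saa3 with DESeq2 or library size. At 1 week folds were given for Adam9, Trpm4, Fst, Fignl2 and Orm1 only. All of them but Orm1 were chosen in part by low naive counts, so whether they were called is a description only. Without the filter, 1537 genes were called at 1 week, 2 of the 10 genes among them (Orm1 and Adam9), and 8 related genes were higher. With library size alone, 7 related genes were higher and 8 lower at 1 week, and 30 were higher and 25 lower at 3 weeks. The 28 identifiers at the floor in naive mice and counted at 3 weeks became 52 with a floor of 5 counts, 16 with a floor of 1 and 16 with a minimum above 20 at 3 weeks. Leaving out 1 library gave 1362 to 2392 called genes at 3 weeks, 147 to 1145 at 1 week and 1502 to 2725 between the weeks. The lowest values came without naive replicate 1 in the first 2 and without one-week replicate 2 in the last, and one-week calls fell to 343 and 277 without one-week replicate 1 or 2. It gave 0 to 1 of the 10 genes called at 1 week, 24 to 36 related genes higher and 11 to 18 lower at 3 weeks, and 0 to 7 higher and 2 to 18 lower at 1 week, where 0 were higher without naive replicate 1, 2 without one-week replicate 1 and 7 without either three-week library, and 3, 8, 6 and 2 were lower without naive replicate 1 or 2 or one-week replicate 1 or 2. A lone library left in a group is assumed to vary like the other groups. At 1 week the share of higher genes among those called was 52.9%, but 68.6% with library size alone and 43.0% with DESeq2. The replicate numbers denote different mice and samples with the same number did not deviate together (r across 12259 genes of 0.01 to 0.038), and a replicate block gave 2560, 956 and 2705 calls and moved no count by over 1.5 times. Depth limits the genes with under 30 counts at 3 weeks, Muc1, Cyp2s1 and Fst, most.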
